A study of Homo sapiens with 12 samples.

Results

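Cells labelled XENO 1 were compared with cells labelled XENO 2 within a study of microRNA-28 (miR-28) in the Burkitt lymphoma line Ramos, an established human B cell line. Of the 12 libraries of the series 10 carry a XENO number, 6 of them XENO 1 and 4 XENO 2, and these were taken by their labels. XENO 1 comprises pairs 1, 4 and 5, and XENO 2 comprises pairs 2 and 6, where a pair is 1 library from cells with the miR-28 vector and 1 from cells with the scramble vector. Pair 3 has no XENO number and was left out. Both groups carry the same vector, pTRIPZ, which expresses its insert and a red fluorescent protein under doxycycline, and both were selected with 0.4 µg/ml puromycin, induced with 0.5 µg/ml doxycycline for 2 days and sorted for red fluorescence. What XENO stands for is not given in the sources used here, nor is whether the pairs come from separate cultures, so that p-values measure the spread between these libraries, which may be technical. Pairs 1 and 2 belong to library batch 1 and pairs 4, 5 and 6 to batch 2, so each batch holds both XENO numbers.

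Ramos cells are germinal centre B cells in origin. They carry a MYC translocation and a surface IgM receptor, whose signal passes through SYK and phosphoinositide 3-kinase, and they go on mutating their immunoglobulin genes in culture. A B cell also senses bacterial products through Toll-like receptors, to which CD180 is related. The partner of CD180 is MD-1, the product of LY86. The induced microRNA is made from a hairpin within LPP. Its 3′ arm, from the RefSeq annotation of GRCh38.p14 at chr3:188688834-188688855 on the plus strand, is shown because every miR-28 library of both XENO numbers was made to express this hairpin; capitals mark the seed, bases 2 to 8, which pairs with targets.
miR-28-3p: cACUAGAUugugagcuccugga

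The deposited table gives CPM (counts relative to library size, with TMM scaling) for 12725 genes. The 10 libraries held 15404730 to 37876636 reads, so that 3 reads correspond to 0.0830 to 0.181 CPM, a floor that covers counting error only. All 9 B cell markers examined were measured in every library, among them IGHM at 5602 to 7153 CPM in XENO 1 and 5571 to 7219 CPM in XENO 2 libraries, and CD79A at 564 to 621 CPM in XENO 1 and 497 to 632 CPM in XENO 2 libraries. Defining markers of T cells (0 of 7), myeloid cells (0 of 6), erythroid cells (0 of 4), epithelium (0 of 5) and stroma (0 of 5) are not in the table used here. Mitochondrially encoded transcripts took 1.19% to 2.88% of the reads. These are bulk libraries, in which fewer cells with a transcript and less of it per cell cannot be told apart.

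The first question was how large the XENO difference is beside other differences between the same pairs. Pairs with the other XENO number were in part closer to each other than pairs with the same one. Over 10280 genes with a mean of 5 CPM or more, the root mean square log2 difference was 0.257 between pairs 1 and 2, which differ in XENO number, 0.290 between pairs 5 and 2, and 0.405 between pairs 4 and 6. Pairs 4 and 5, both XENO 1 and in the same batch, differed by 0.857, with 2276 genes past 2-fold. Pairs 1 and 5, both XENO 1 but in different batches, differed by 0.252, with 33 genes past 2-fold, fewer than the 69 between pairs 1 and 2. The libraries of 1 pair differed by 0.172 to 0.359. The 5 pairs thus lay on 2 sides, pairs 4 and 6 against pairs 1, 2 and 5, and this division crosses both the XENO number and the batch.

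**Figure D1:**
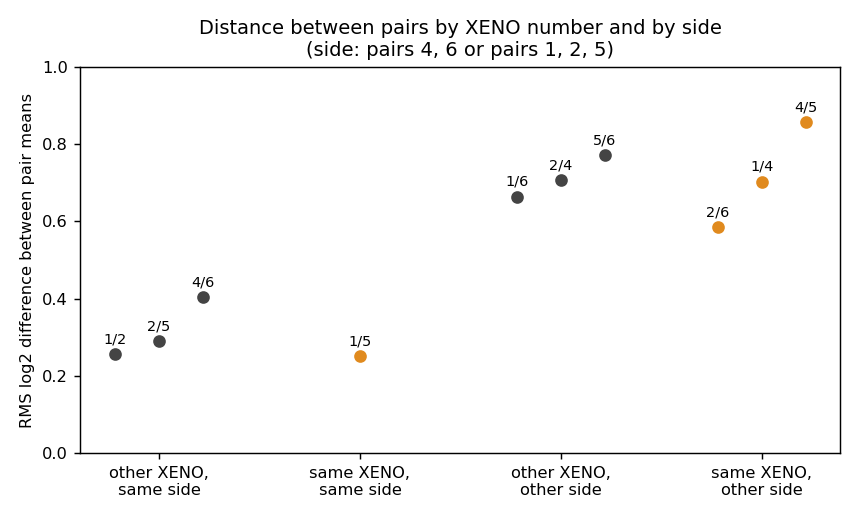
Root mean square log2 difference between the means of 2 pairs (y axis) for every combination of the 5 pairs, grouped on the x axis by whether they share the XENO number and the side of the division; each point is 1 combination, labelled with its pairs. Combinations on the same side lie at 0.252 to 0.405, and those across the sides at 0.585 to 0.857, whether or not the XENO number is shared.

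In limma on log2(CPM + 1) with batch, vector and XENO as terms and the correlation within pairs in the fit, 0 of 12725 genes (0%) had a Benjamini-Hochberg adjusted p under 0.05. The smallest adjusted p was 0.695. Chance alone gives 636 genes an unadjusted p under 0.05, and 271 had one. On pair means limma called 0 genes as well, with 283 at an unadjusted p under 0.05. The edgeR quasi-likelihood test on the recovered reads, which takes the libraries of a pair as independent, called 97, and DESeq2 on the same terms called 477. The division of the pairs enters the error of the limma fit, whose median SE was 0.283. With the division as a further term the median SE was 0.109 and limma called 323 genes higher (2.54%) and 272 lower (2.14%) in XENO 1. This term was taken from the data, and with it the XENO difference is the average of pair 1 minus pair 2 and pair 4 minus pair 6. Pair 5 then carries no weight in it, a single degree of freedom among pairs is left, and the correlation within pairs is 0.065, against 0.80 without the term, so that the libraries of a pair count as nearly independent. Adjusted p-values "with the division" below are from this fit.

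As a description that needs no model, a gene was called separated where every XENO 1 library of a batch lay on the same side of every XENO 2 library of that batch, in both batches. XENO 1 lay above in 623 genes (4.9%) and below in 687 (5.4%). All 6 XENO 1 libraries lay above all 4 XENO 2 libraries in 192 genes, and below them in 188. Of the 595 genes called with the division, 387 were separated.

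The 2 batches give the XENO difference from libraries that are not shared, as pair 1 minus pair 2 and as pair 4 minus pair 6. Across 10280 genes, which are not independent replicates, these differences had a Pearson's r of 0.504 and a Spearman's rho of 0.348, and 61.1% had the same sign. Among the 69 genes past 2-fold in batch 1, all 69 had the same sign in batch 2, and 50 were past 2-fold in the same direction, with 0 past it in the other. The 69 were chosen by their difference in batch 1, among genes with a mean of 5 CPM or more over all 10 libraries. Of the 69, 63 also had this sign in the miR-28 library of pair 5 minus the miR-28 library of pair 6. That comparison leaves out the scramble libraries of pairs 5 and 6, and it shares pair 6 with the batch 2 difference above. The share of all genes with the same sign in it was not determined.

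**Figure D2:**
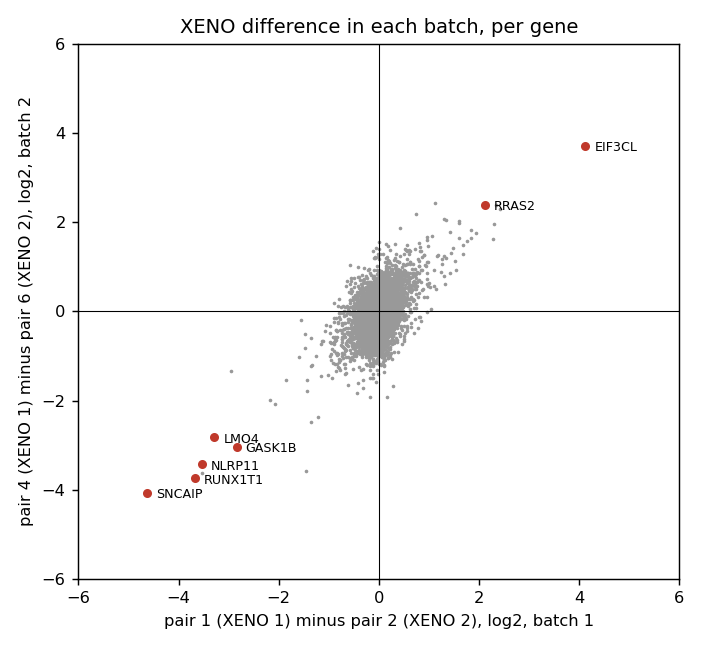
Log2 difference of pair 1 (XENO 1) minus pair 2 (XENO 2) on the x axis against pair 4 (XENO 1) minus pair 6 (XENO 2) on the y axis; each grey point is 1 of 10280 genes and red points are named. Most genes lie around 0, and genes with large differences lie along the diagonal, from SNCAIP at the lower left to EIF3CL at the upper right.

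Among the genes lower in XENO 1, SNCAIP encodes synphilin-1, a binding partner of alpha-synuclein. It measured 0.0706 CPM at the lowest, 0.384 at the median and 8.29 at the highest in XENO 1 libraries, against 29.1 and 29.6 CPM in pair 2 and 22.2 and 19.8 CPM in pair 6 of XENO 2. No XENO 1 library overlapped XENO 2, and the single XENO 1 library above 0.5 CPM was the scramble library of pair 5. The log2 difference was -3.90 with an SE of 1.08 (limma adjusted p = 1), and -4.35 with an SE of 0.41 with the division (limma adjusted p = 0.000306).

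LMO4, a LIM-only transcriptional cofactor, measured 13.1 CPM at the lowest, 19.0 at the median and 51.8 at the highest in XENO 1 libraries, against 122 and 151 CPM in pair 2 and 165 and 138 CPM in pair 6. GASK1B, which encodes a Golgi-associated kinase-like protein, measured 9.30, 11.7 and 39.8 CPM at the lowest, median and highest in XENO 1, against 82.0 and 92.1 CPM in pair 2 and 101 and 77.0 CPM in pair 6. RAVER2, a ribonucleoprotein that binds polypyrimidine tract proteins, measured 12.8, 15.7 and 33.2 CPM in XENO 1, against 65.5 and 61.1 CPM in pair 2 and 78.8 and 60.1 CPM in pair 6. In each of these 3 genes the groups did not overlap, and the highest XENO 1 value was again the scramble library of pair 5. Their log2 differences were -2.86 (SE 0.63), -2.62 (SE 0.72) and -1.92 (SE 0.49), and each had an adjusted p of 0.000275 with the division in limma.

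Other genes of the 12 lower ones differed by less and more evenly. DST, a giant linker of the cytoskeleton, measured 40.2 to 47.3 CPM in XENO 1 against 85.3 to 130 CPM in XENO 2 libraries, a log2 difference of -1.24 (SE 0.24, limma adjusted p = 0.695). The spread within XENO 1 was small beside the step between the groups, while that within XENO 2 was not. The pair 5 libraries lay within the other XENO 1 libraries. EIF2AK4, the kinase GCN2 that senses amino acid shortage, measured 35.3 to 67.7 CPM in XENO 1 against 94.0 to 147 CPM in XENO 2 (log2 difference -1.38, SE 0.31). RAPGEF2, an exchange factor for the small GTPase RAP1, measured 18.7 to 49.7 CPM in XENO 1 against 67.4 to 121 CPM in XENO 2 (log2 difference -1.85, SE 0.47). UNC13C, SNAP47, TMCC3 and CAMSAP3, which caps the minus ends of microtubules, had log2 differences between -1.51 in TMCC3 and -0.93 in SNAP47, with groups that did not overlap. ZFP90, a zinc finger repressor (-1.40), overlapped across batches, with up to 18.4 CPM in XENO 1 and down to 17.8 CPM in XENO 2. All 12 had an adjusted p between 0.000275 and 0.00273 with the division and between 0.695 and 1 without it in limma.

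Among the genes higher in XENO 1, SLC25A24 had the smallest adjusted p with the division. It encodes a carrier that exchanges ATP-magnesium and phosphate across the inner mitochondrial membrane. Its values were 6.63 CPM at the lowest, 8.98 at the median and 13.9 at the highest in XENO 1, against 0.675 and 1.30 CPM in pair 2 and 1.36 and 2.05 CPM in pair 6. The groups did not overlap, and pair 5 lay at the low end of XENO 1. The log2 difference was 2.12 (SE 0.35, limma adjusted p = 0.695), and 2.36 (SE 0.13) with the division (limma adjusted p = 3.12e-05).

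STAT5A, which carries cytokine signals to the nucleus, measured 7.28, 18.2 and 27.8 CPM at the lowest, median and highest in XENO 1, against 3.60 CPM in both libraries of pair 2 and 1.79 and 0.903 CPM in pair 6. RRAS2, a RAS-related GTPase that binds the B cell receptor, measured 5.12, 8.74 and 15.3 CPM in XENO 1, against 2.78 and 1.88 CPM in pair 2 and 0.536 and 1.20 CPM in pair 6. Neither gene overlapped between the groups, with log2 differences of 2.58 (SE 0.58) and 2.12 (SE 0.45). CD180, a relative of the Toll-like receptors on B cells, measured 8.72, 27.7 and 44.5 CPM in XENO 1, against 11.8 and 12.4 CPM in pair 2 and 2.04 and 1.51 CPM in pair 6. Here pair 4 of XENO 1 lay below pair 2 of XENO 2, while within each batch the groups were apart (log2 difference 2.21, SE 0.51). LILRB1, an inhibitory receptor for MHC class I (1.65, SE 0.37), and NLRP7, a member of the NLR family (2.04, SE 0.52), overlapped between batches as well.

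MYO1D, an unconventional class I myosin, measured 52.8 to 71.4 CPM in XENO 1 against 24.1 to 26.9 CPM in XENO 2 (log2 difference 1.20, SE 0.22). MAGEH1 lay at 7.74 to 11.3 CPM in XENO 1 and 2.17 to 3.29 CPM in XENO 2 (1.58, SE 0.31), CMTM7 at 8.69 to 23.2 CPM in XENO 1 and 1.93 to 4.83 CPM in XENO 2 (1.99, SE 0.45), and B4GALT2, a galactosyltransferase, at 6.97 to 18.6 CPM in XENO 1 and 1.32 to 2.88 CPM in XENO 2 (2.11, SE 0.37). None of these 4 overlapped. OXCT1, which lets mitochondria use ketone bodies, measured 54.7 to 89.2 CPM in XENO 1 against 27.9 to 56.7 CPM in XENO 2 (0.96, SE 0.23). EIF3CL had the largest difference of the 12 (4.57, SE 1.10), at 25.9 to 177 CPM in XENO 1 and 0 to 4.32 CPM in XENO 2. It is a near-identical copy of EIF3C, a subunit of translation initiation factor 3, so its reads are uncertain, and EIF3C itself measured 149 to 666 CPM in XENO 1 and 216 to 662 CPM in XENO 2. All 12 had an adjusted p of at most 0.000819 with the division in limma and of 0.695 to 0.942 without it.

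**Figure D3:**
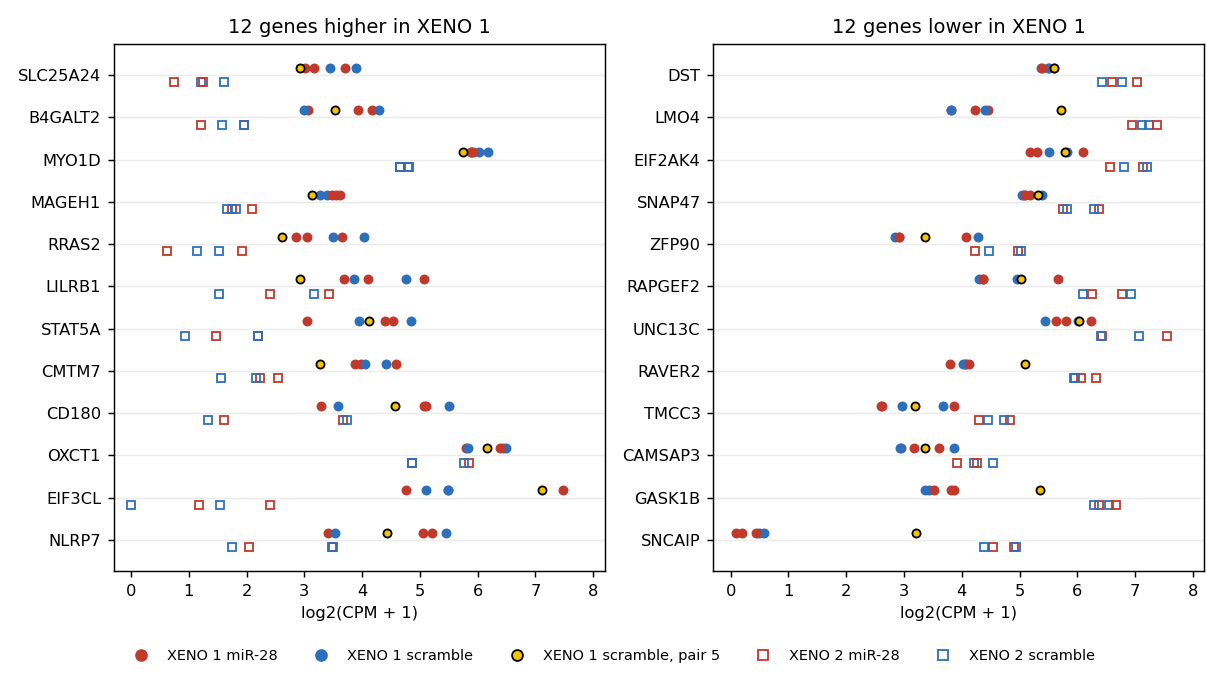
Log2(CPM + 1) of the 12 genes higher (left) and the 12 genes lower in XENO 1 (right) in each of 10 libraries; filled circles are XENO 1, drawn above the open squares of XENO 2, red for miR-28 and blue for scramble. The yellow circle, the scramble library of pair 5, stands between the groups for LMO4, RAVER2, GASK1B and SNCAIP, and at the low end of XENO 1 for SLC25A24 and MYO1D.

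Pair 5 was examined apart because its scramble library stood between the groups in these genes. Genes with a gap between the groups were picked on pairs 1, 2, 4 and 6 alone, where the lowest library of one XENO number exceeded the highest of the other by more than 2-fold on CPM + 1, after their values had been seen, so that pair 5 was held out and no test applies. This gave 17 genes high in XENO 2 and 19 high in XENO 1. Pairs 1, 2, 4 and 6 also set the scale used below, so a held-out library can lie between the groups by the picking alone. How far the picking moves it was not determined. At the threshold, SNX24 lay just inside at 2.02-fold and DMD just outside at 1.89-fold among genes high in XENO 2. The 17 include RUNX1T1, a transcriptional corepressor, with 0.812 to 11.1 CPM in XENO 1 and 24.1 to 39.3 CPM in XENO 2, and NLRP11, with 1.78 to 19.2 CPM in XENO 1 and 46.3 to 67.3 CPM in XENO 2. PDZRN4 measured 1.74 to 13.4 CPM in XENO 1 and 36.8 to 53.3 CPM in XENO 2, and CRB1, a polarity protein, 0.0625 to 2.74 CPM in XENO 1 and 7.22 to 9.90 CPM in XENO 2.

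On a scale from the mean of pairs 1 and 4 (0%) to the mean of pairs 2 and 6 (100%), the miR-28 library of pair 5 lay at a median of 0.343% over the 17 genes high in XENO 2. The scramble library of pair 5 lay at a median of 29.9%, with a range of 19.8% to 52.5%. It exceeded every library of pairs 1 and 4 in 17 of 17 genes and lay below every XENO 2 library in 17 of 17. With a 4-fold threshold, which left 8 genes, the medians were 0.590% for the miR-28 library and 29.4% for the scramble library. The labels make both libraries XENO 1. Thus a gene such as RUNX1T1 differed within pair 5, with 1.24 CPM in the miR-28 library and 11.1 CPM in the scramble library, while the scramble libraries of pairs 1 and 4 had 3.31 and 0.939 CPM.

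Among the 19 genes high in XENO 1, both libraries of pair 5 exceeded every XENO 2 library in 19 of 19. Their medians were 31.6% of the way towards XENO 2 for the miR-28 library (range -402% to 82.5%) and 64.0% for the scramble library (-289% to 87.7%). The miR-28 library lay below every library of pairs 1 and 4 in 12 of 19 genes, and the scramble library in 17. These genes were picked for high values in pairs 1 and 4, so part of these shifts can come from the picking. A 4-fold threshold left 1 gene, EIF3CL, which went the other way, at -402% and -289%. POU4F1, a POU-domain transcription factor, measured 4.34 and 4.08 CPM in the miR-28 libraries of pairs 1 and 4 and 2.74 CPM in that of pair 5, 3.41, 2.19 and 0.912 CPM in the scramble libraries of pairs 1, 4 and 5, and 0.166 to 0.241 CPM in XENO 2. USP40, a deubiquitinase, measured 1.39 to 8.25 CPM in XENO 1 and 0.0602 to 0.422 CPM in XENO 2, lowest within XENO 1 in the scramble library of pair 5. Without this library, limma with batch, vector and XENO called 9 genes instead of 0, of which SLC25A24 was higher and SNCAIP, LMO4, GASK1B, PDZRN4, CRB1, RAVER2 and 2 genes without a symbol were lower in XENO 1. All 9 were among the 36 genes picked above. That overlap is no separate support, since both rest on the gap between the groups in largely the same libraries. Without the scramble library of pair 5, SNCAIP had a log2 difference of -4.28 (limma adjusted p = 0.00141) and LMO4 of -3.07 (limma adjusted p = 0.00141). The library was left out after its values in such genes had been seen, so these adjusted p-values are descriptive only. The counts of separated genes without it were 719 higher (5.65%) and 768 lower (6.04%). Why the scramble library of pair 5 stands apart was not tested, nor was the position of its miR-28 library in genes high in XENO 1.

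**Figure D4:**
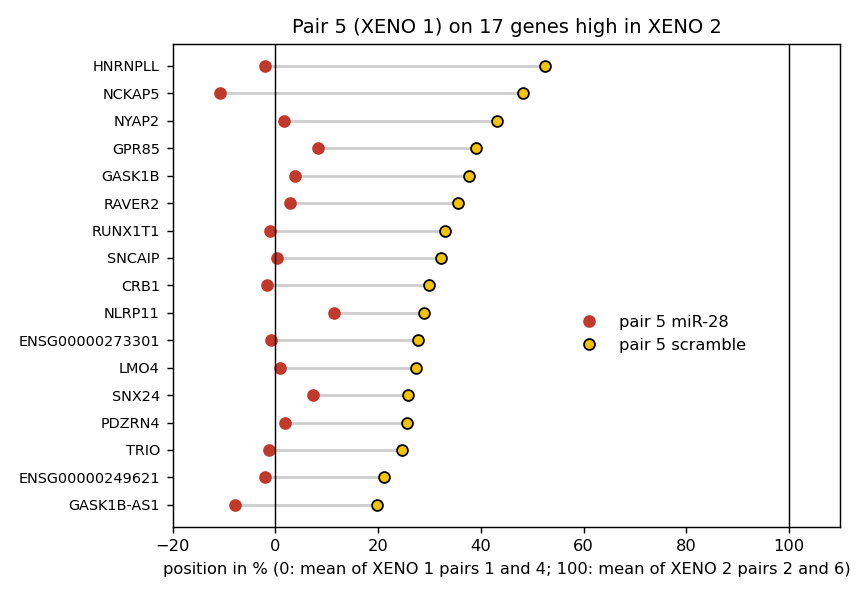
Position of the miR-28 (red) and scramble (yellow) libraries of pair 5, both labelled XENO 1, on the x axis in percent, from the mean of XENO 1 pairs 1 and 4 (0) to the mean of XENO 2 pairs 2 and 6 (100), for each of 17 genes high in XENO 2. The miR-28 library lies near 0, with a median of 0.343%, and the scramble library at 19.8% to 52.5%.

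Several of the 36 genes are neighbours. GASK1B overlaps its antisense gene GASK1B-AS1, whose reads are therefore uncertain, and SNCAIP overlaps ENSG00000249621, with SNX24 379 kb away. NYAP2 and ENSG00000273301 lie 44.5 kb apart on chromosome 2. Thus 7 of the 36 had another of them within 1 Mb, all 7 high in XENO 2, and this count includes the overlapping genes. How often genes drawn from all those measured lie this close was not determined, so the count does not show clustering. The 36 lay on 16 chromosomes.

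Gene lists were then read for how many members were separated, beside 4.9% of all genes higher and 5.4% lower, and for their median beside -0.0083 over all genes. In none of the lists did a gene pass in limma without the division. Of 16 measured Toll-like receptors and adaptors 5 were separated higher in XENO 1 and 0 lower, with a median log2 difference of 0.14. These were CD180, its partner LY86 (12.2 to 23.5 CPM in XENO 1 and 4.54 to 17.3 CPM in XENO 2), TLR4, which recognises lipopolysaccharide, and the adaptors TIRAP and MYD88. TIRAP measured 4.92 to 6.64 CPM in XENO 1 and 3.13 to 3.93 CPM in XENO 2, with no overlap. TLR7 (25.1 to 35.4 CPM in XENO 1, 28.2 to 36.7 CPM in XENO 2) and TLR9 (2.59 to 4.45 CPM in XENO 1, 1.01 to 3.52 CPM in XENO 2), which sense nucleic acids, overlapped. CD180, LY86 and TIRAP were among 4 of the list called higher with the division.

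Of 27 immunoglobulin and B cell receptor genes 4 were separated higher and 2 lower, with a median of 0.11. PRKCB, the protein kinase C of this pathway, lay at 0.912 to 4.31 CPM in XENO 1 and 0.0602 to 1.13 CPM in XENO 2 (log2 difference 1.20, SE 0.43). PIK3CD and PTPN6 were also above, and INPP5D, the phosphatase SHIP1, and the adaptor BLNK below. Of 17 plasma cell genes 0 were separated higher and 4 lower, with a median of -0.19. SLAMF7, a surface receptor of plasma cells, measured 0.969 to 2.68 CPM in XENO 1 and 2.78 to 5.50 CPM in XENO 2 (-1.02, SE 0.43), and SEC11C, CREB3L2 and TNFRSF17 (BCMA) were the other 3. Of 30 germinal centre genes 1 was separated in each direction, and BCL6, the repressor of this stage, measured 514 to 825 CPM in XENO 1 and 588 to 815 CPM in XENO 2.

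Among 23 genes of the BCL2 family and death receptors 3 were separated higher and 0 lower. BCL2, an inhibitor of apoptosis, measured 2.51, 4.15 and 17.2 CPM at the lowest, median and highest in XENO 1, against 0.787 and 0.830 CPM in pair 2 and 1.04 and 1.93 CPM in pair 6. The groups did not overlap (1.47, SE 0.59, limma adjusted p = 1, with the division 0.00225). Of 20 surface homing and adhesion genes 4 were higher and 0 lower. CD82, a tetraspanin, was the clearest, at 6.74 to 17.4 CPM in XENO 1 and 1.02 to 4.48 CPM in XENO 2 (1.83, SE 0.53, limma adjusted p = 1, with the division 0.000857). Of 22 interferon response genes 4 were higher and 0 lower, namely OAS3, OAS2, IFIT5 and RIGI. IFIT5 measured 2.62 to 6.75 CPM in XENO 1 and 0.900 to 1.87 CPM in XENO 2, and OAS2 measured 42.2 to 55.4 CPM in XENO 1 and 26.1 to 37.9 CPM in XENO 2.

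From the T cell list 7 of 20 genes were measured and 2 were separated, both higher. ZAP70, a kinase of the T cell receptor that some B cell malignancies express, lay at 2.32 to 10.6 CPM in XENO 1 and 0.120 to 1.15 CPM in XENO 2 (1.98, SE 0.49, limma adjusted p = 0.942, with the division 0.000577). LCK, a SRC-family kinase, lay at 58.7 to 171 CPM in XENO 1 and 43.6 to 93.9 CPM in XENO 2 (1.01, SE 0.35). The measured genes of the list summed to 189 to 325 CPM in XENO 1 and 144 to 220 CPM in XENO 2. TRAC, the constant gene of the T cell receptor alpha chain, lay at 21.4 to 52.1 CPM in XENO 1 and 16.9 to 22.5 CPM in XENO 2 and was not separated (0.84, SE 0.42, limma adjusted p = 1, with the division 0.0046). CD3D, CD3E and CD3G are not among the genes measured here. The stromal list had 2 measured genes, which summed to 1.86 to 7.60 CPM in XENO 1 and 2.93 to 5.90 CPM in XENO 2.

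Metabolic lists had high medians that came mostly from pair 5 against pair 6. Cholesterol synthesis (5 of 33 separated higher, 0 lower) had a median of 0.42, with 0.041 for pair 1 minus pair 2, 0.29 for pair 4 minus pair 6 and 1.22 for pair 5 minus pair 6. FASN, the fatty acid synthase, measured 400 and 387 CPM in pair 1 and 98.6 and 138 CPM in pair 4, 627 and 564 CPM in pair 5, against 351 and 268 CPM in pair 2 and 56.1 and 83.3 CPM in pair 6, miR-28 library first in each pair. Levels followed the division of the pairs, with pairs 4 and 6 low and pairs 1, 2 and 5 high, and within each side XENO 1 lay above XENO 2. Glycolysis and hypoxia genes (7 of 31 higher, 0 lower) had medians of 0.15, 0.058 and 0.74 in these 3 pair differences. MYC and its targets (2 of 32 higher, 1 lower) had medians of 0.068, 0.19 and 1.01, and genes of DNA replication (1 of 52 in each direction) 0.0025, -0.20 and 0.99. MYC itself measured 548 to 718 CPM in XENO 1 and 484 to 701 CPM in XENO 2.

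Of 30 genes of the ATF4 and amino acid response 2 were separated lower, a share near that of all genes, and 0 higher. The median was -0.27, with -0.094 for pair 1 minus pair 2, -0.25 for pair 4 minus pair 6 and -0.69 for pair 5 minus pair 6. STC2, a secreted stress hormone, measured 32.9, 45.7 and 163 CPM at the lowest, median and highest in XENO 1, against 61.1 and 103 CPM in pair 2 and 273 and 342 CPM in pair 6 (-1.47, SE 0.55, limma adjusted p = 1, with the division 0.0046). XENO 1 values of pair 4 lay above XENO 2 values of pair 2, and within each batch XENO 1 was lower. The p53 target list had 2 of 21 lower, GADD45A (-0.70) and SESN1 (-0.69), and 1 higher, TIGAR (0.14). NF-kB genes (1 of 20 higher), cytosolic ribosomal proteins (1 of 78 higher), the unfolded protein response (0 of 27) and reported miR-28 targets (0 of 12) had few or no separated genes.

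Position along the genome was examined in windows of 20 neighbouring genes. Of 498 windows, 1 had medians past 0.2 in the same direction in all 3 pair differences, of which pair 4 minus pair 6 and pair 5 minus pair 6 share pair 6. It spans GRCh38 chr11:125883614-134265855, the end of the long arm, and has 21 genes, all 21 above 0 in the limma fit. Its median log2 difference was 0.39, with 0.38 for pair 1 minus pair 2, 0.39 for pair 4 minus pair 6 and 0.22 for pair 5 minus pair 6. Some of its genes lay below 0 in pair 4 minus pair 6 or in pair 5 minus pair 6. The window holds TIRAP, named above, and FLI1, an ETS-family transcription factor, at 60.4 to 71.7 CPM in XENO 1 and 37.1 to 57.3 CPM in XENO 2, with no overlap. The neighbouring ETS1 measured 661 to 1133 CPM in XENO 1 and 657 to 742 CPM in XENO 2, low in pair 5 within XENO 1. ST14, a membrane serine protease, lay at 340 to 435 CPM in XENO 1 and 241 to 342 CPM in XENO 2. With the division the limma adjusted p was 0.0446 for FLI1, 0.014 for ETS1 and 0.0188 for ST14. The window was picked for its XENO difference in the same pairs, so these adjusted p-values are descriptive only. In pair 5 minus pair 6, which has no weight in that fit, ETS1 lay at -0.16, FLI1 at 0.63 and ST14 at 0.52. ETS1 was not separated. Just before this window lies STT3A, a subunit of oligosaccharyltransferase, which lay at 114 to 144 CPM in XENO 1 and 163 to 247 CPM in XENO 2 (-0.59, SE 0.31). Gene copy number was not measured in these data. The medians of whole nuclear chromosomes ranged from -0.049 on chromosome 4 to 0.054 on chromosome X.

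**Figure D5:**
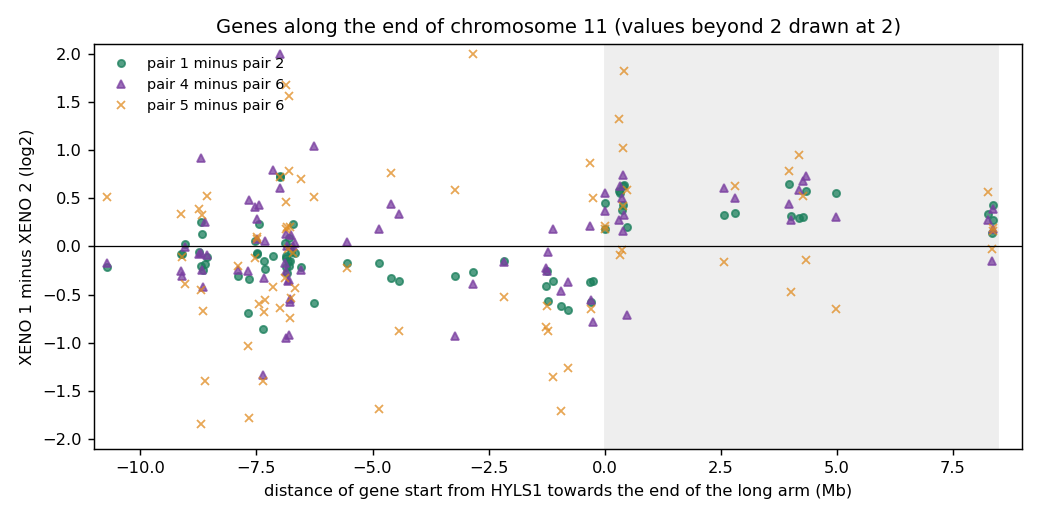
Log2 difference of XENO 1 minus XENO 2 (y axis) by distance of each gene's start from that of HYLS1, towards the end of the long arm of chromosome 11, in Mb (x axis); green circles are pair 1 minus pair 2, purple triangles pair 4 minus pair 6 and orange crosses pair 5 minus pair 6. In the grey window the medians are 0.38, 0.39 and 0.22, and to the left of it many genes lie below 0.

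The last question was whether miR-28 acted differently in the 2 kinds of cells. MIR28 itself measured 1.66, 3.16 and 0.983 CPM in the miR-28 libraries of XENO 1 pairs 1, 4 and 5 (mean 1.93 ± 1.11, SD, n = 3), against 1.74 and 1.14 CPM in those of XENO 2 pairs 2 and 6 (mean 1.44 ± 0.424, SD, n = 2). The groups overlapped. An exact permutation test within batch, two-sided, gave p = 1, where the smallest p that its 6 arrangements allow is 0.167. These values rest on 134 reads in XENO 1 and 94 in XENO 2, with 0 reads in the scramble libraries, and polyadenylated RNA does not measure the mature microRNA. SPCS3, a subunit of the signal peptidase, measured 232, 275 and 254 CPM in miR-28 libraries against 410, 401 and 558 CPM in scramble libraries of XENO 1 pairs 1, 4 and 5. In XENO 2 pairs 2 and 6 it measured 265 and 244 CPM in miR-28 libraries against 494 and 493 CPM in scramble libraries. The mean log2 difference of miR-28 minus scramble was -0.83 in XENO 1 and -0.95 in XENO 2, and the difference between them was 0.12 with an SE of 0.17 (limma adjusted p = 0.888). NFE2L2, the transcription factor NRF2, had mean differences of -0.53 in both XENO 1 and XENO 2 (limma interaction, SE 0.13, adjusted p = 0.996).

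In limma with the pair as a block, 0 of 12725 genes (0%) were called for a different miR-28 effect in XENO 1 and XENO 2 at an adjusted p under 0.05. The smallest adjusted p was 0.648. With 3 and 2 pairs this does not show that the effects were the same. Of all genes 904 had an unadjusted p under 0.05, against 636 by chance. The edgeR quasi-likelihood test called 0 too, and DESeq2 called 12. The smallest p was that of HSPA8, the constitutive HSC70 chaperone. Its miR-28 minus scramble log2 difference was -0.21, -0.48 and -0.22 in XENO 1 pairs 1, 4 and 5, against 0.58 and 0.91 in XENO 2 pairs 2 and 6, so that the signs were opposite (difference -1.04, SE 0.16, limma adjusted p = 0.648). HRK, a pro-apoptotic BH3 protein, had 0.78, 0.27 and 1.21 in XENO 1 against -0.44 and -0.67 in XENO 2 (1.31, SE 0.26, limma adjusted p = 0.694). The replication genes MCM4 (-0.84, SE 0.18) and CLSPN (-0.85, SE 0.17), the ornithine carrier SLC25A15 (-0.85, SE 0.17) and RIMS3 (0.99, SE 0.19) came next, with ROCK1P1 (1.20) and PKD1P1 (1.11), pseudogenes whose reads are uncertain. For MCM4 the XENO 2 values were 0.39 in pair 2 and 1.02 in pair 6. Without pair 2, when pair 6 alone stands for XENO 2, limma called 365 genes, 126 higher and 239 lower. Pair 6 had the largest root mean square difference between its 2 libraries, 0.359 against 0.172 to 0.248 in the other 4 pairs.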

How the data were processed

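Polyadenylated RNA of 10 libraries of sorted Ramos cells was compared by XENO number. Per the submitters' processing notes, CASAVA 1.8.2, cutadapt and RSEM 1.2.3 were used with GRCh38; for the gene filter and the strand setting the sources give nothing. The deposited table has 1 signal value per gene and library, with no pooling. All values were whole multiples of 1 step per library (100% within 0.01 reads), and edgeR's TMM factors of these reads match the values, which are thus CPM scaled by TMM. Symbols were found for 11881 and GENCODE release 29 positions for 12595 of 12725 genes. The design allowed for counts or normalized values.

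In R 4.3.3, limma 3.58.1 (trend) was fitted to log2(CPM + 1), a scale that understates changes of low genes, with batch, vector and XENO as terms and the pair as a correlated block (correlation 0.80). The numbers pair the libraries by label, and deviations from the mean of each vector correlated within pairs by 0.693 to 0.922. These deviations also hold the division of the pairs, and no correlation across pairs was taken, so they do not test the pairing. The interaction used the pair as a fixed block. Counts by edgeR 4.0.16 and DESeq2 1.42.0 were alternatives. The fits were also run on simulated data with independent pair effects. That simulation held no division of the pairs, so it does not show how the fits behave with one. Named genes are, with 0 called, the 12 separated genes with a mean of at least 5 CPM and the smallest p in each direction, 4 per direction for the interaction, and up to 3 per list. Genes picked for pair 5, for position and as further examples (TLR7, TLR9, MYC, BCL6, EIF3C, NFE2L2, SPCS3, FLI1, ETS1, ST14, STT3A and list members beyond 3) were chosen after their values were seen. Some named items are not reported here. Members and lists were chosen with earlier results of these data known.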

Additional observations from a re-analysis of the deposited data

Results flagged for a closer look

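In 4 of 110 groups of XENO 1 or XENO 2 libraries tested, 1 library lay far from the others. Chance flags about 1 in 20, so the number of flags is not above chance. All 4 were the scramble library of pair 5 within the 6 XENO 1 libraries. It measured 51.8 CPM for LMO4, where the nearest XENO 1 library had 20.8, and 33.2 CPM for RAVER2, where the nearest had 16.4. For GASK1B it measured 39.8 CPM against 13.6 in the nearest, and for SNCAIP 8.29 CPM against 0.492. In each gene it lay towards the XENO 2 libraries. These 4 genes are those already named for this library, so the flags are no separate support.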

How the results depend on the processing

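The count of 0 genes for XENO depended on how the pairs and pair 5 were treated. It was 97 with edgeR (62 higher, 35 lower) and 477 with DESeq2, both with no replicate block, 111 in limma with no replicate block, 595 with the division of the pairs as a term and 447 in library batch 1 alone, where each XENO number has a single pair whose 2 libraries were taken as replicates. Leaving out 1 pair at a time gave 0 to 522, the highest without pair 5, and leaving out 1 library gave 0 to 9, the highest without the scramble library of pair 5. Leaving this library out with the division as a term, chosen after seeing the data, gave 521. The cause of these shifts was not tested. The other alternatives (pseudocounts, filters, size factors, limma-voom, pair means, no batch term, either vector alone, batch 2 alone) left 0.

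The interaction count of 0 was 12 with DESeq2 and a replicate block, and leaving out 1 pair gave 0 to 365, the highest without pair 2; with no replicate block it was 0. No named gene was called in the main fit for XENO or for the interaction, so none had a call to lose. Under the alternatives 465 values for named genes passed the threshold. Under the alternatives 7 list medians and 17 chromosome medians moved, and 233 and 127 did not. XENO was compared over 3 and 2 pairs, and genes near the 3-read floor are the least certain.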

Other observations

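Pair 3, which has no XENO number, was placed on the same scale from the mean of pairs 1 and 4 (0%) to the mean of pairs 2 and 6 (100%). Over the 17 genes high in XENO 2 its miR-28 library lay at a median of 56.3% and its scramble library at 14.6%. Over the 19 genes high in XENO 1, the medians were 94.7% of the way towards XENO 2 for its miR-28 library and 79.0% for its scramble library. SNCAIP measured 6.78 CPM in the miR-28 library and 1.38 CPM in the scramble library of pair 3, and SLC25A24 15.3 and 8.61 CPM. LILRB1 (0.351 and 0.178 CPM) and CD180 (0.456 and 0.312 CPM) were lower in both libraries of pair 3 than in any XENO 1 or XENO 2 library.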
